A study of Mus musculus with 2 samples.

Results

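RP23-474J16.2 is a long noncoding RNA gene (ENSMUSG00000109097, Gm29683 in GENCODE vM21) that lies beside Nr2f2 (ENSMUSG00000030551) on mouse chromosome 7. The rows of both genes were taken by symbol from the 2 single-nucleus RNA-seq count tables, which gave 2 of 27998 features in each. The pair was chosen by measured values, the WBRT-28d to ShamRT-28d ratios of these libraries, so the levels and ratios given here are a description and carry no test. The question was whether the noncoding RNA was higher together with Nr2f2 or alone, and in which cell types.

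Nuclei came from frozen whole brains of female C57BL/6 mice (C57BL/6J in the methods of the study). ShamRT-28d is the control library, labelled untreated and described as mock-irradiated. WBRT-28d received whole-brain irradiation of 2 Gy in each of 5 fractions. Brains of both conditions were harvested on day 28. The brains of a pair of mice were pooled into each library, so there was 1 library per condition, animal-to-animal variation was not measured, and library and condition cannot be told apart. The study bought its wild-type mice at a few weeks of age, and the background strain and the pooling were the same in both groups.

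Nr2f2 encodes COUP-TFII, an orphan nuclear receptor that binds DNA as a dimer at repeats of the AGGTCA motif and mostly represses transcription. It is known for venous and lymphatic endothelial identity, for pericyte recruitment, and for the development of interneurons from the caudal ganglionic eminence. Long noncoding RNAs often sit beside genes of developmental transcription factors and share part of their expression pattern. No function of RP23-474J16.2 is assumed here.

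In GRCm38 coordinates RP23-474J16.2 spans chr7:70178868-70337852 on the minus strand (159 kb), and Nr2f2 spans chr7:70351944-70366735 on the same strand (14.8 kb). The noncoding gene starts 14.1 kb downstream of the annotated 3′ end of Nr2f2, and the 5′ ends lie 28883 bases apart. GENCODE vM21 gives it 3 transcripts of 2, 4 and 4 exons, with spliced lengths of 397, 720 and 2488 bases, so most of the span is intronic. Introns were counted by the authors, and a nascent transcript that ran on from Nr2f2 into this span cannot be told apart from RP23-474J16.2 in these counts. Gm29327, on the same strand, and RP23-474J16.4, on the opposite strand, lie within the span and had 0 UMIs in both libraries.

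The sequences around the annotated starts are shown because the pair was compared as neighbours with separate starts. Each RefSeq window (GRCm38.p6, minus strand, 5′ to 3′) holds 300 bases, and capitals mark its last 50 bases, from the annotated start onwards. The first is at chr7:70337803-70338102, 1 of 2 windows that RefSeq lists for this gene, and the second is at chr7:70366697-70366996.
RP23-474J16.2: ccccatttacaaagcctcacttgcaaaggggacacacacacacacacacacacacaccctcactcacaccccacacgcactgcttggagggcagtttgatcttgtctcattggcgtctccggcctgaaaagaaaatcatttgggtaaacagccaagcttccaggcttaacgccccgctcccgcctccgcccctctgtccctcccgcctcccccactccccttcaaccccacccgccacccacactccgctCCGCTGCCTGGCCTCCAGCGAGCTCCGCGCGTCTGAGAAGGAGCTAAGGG
Nr2f2: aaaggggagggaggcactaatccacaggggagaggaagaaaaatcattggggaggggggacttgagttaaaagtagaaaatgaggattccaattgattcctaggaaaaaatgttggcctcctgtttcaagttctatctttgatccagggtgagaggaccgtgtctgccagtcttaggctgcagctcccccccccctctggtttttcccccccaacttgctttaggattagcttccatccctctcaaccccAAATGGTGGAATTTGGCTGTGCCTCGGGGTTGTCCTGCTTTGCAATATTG
The noncoding window had a GC content of 61%, above 73.1% of 32851 mouse windows of the same length, whereas the Nr2f2 window had 49.7%, above 38.1% of them. On both strands, the receptor motif AGGTCA and the TATA box TATAAA had 0 matches in either window, and they occur in 16.3% and 13.6% of all windows. The CCAAT box (CCAAT, 37.4% of windows) matched 1 time in the noncoding window and 2 times in that of Nr2f2. The GC box (GGGCGG, 35.7% of windows) matched 1 time in the noncoding window and 0 times in that of Nr2f2. These matches describe the letters of the windows only.

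All 3 noncoding transcripts share a first exon that ends at the same donor site. It is printed because every annotated transcript holds it: chr7:70337703-70337852, minus strand, 150 bases, with the 120 bases shared by all 3 transcripts in capitals.
First exon: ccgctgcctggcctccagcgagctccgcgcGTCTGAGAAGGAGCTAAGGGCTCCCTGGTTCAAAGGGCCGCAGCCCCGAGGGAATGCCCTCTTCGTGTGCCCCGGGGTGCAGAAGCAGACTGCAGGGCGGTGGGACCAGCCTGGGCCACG

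The ShamRT-28d library held 11469 barcodes with 45511469 UMIs and the WBRT-28d library 15986 barcodes with 68423922 UMIs. After filters and removal of called doublets, 10342 nuclei with a median of 2326 UMIs and 14043 nuclei with a median of 2491 UMIs were kept. The libraries shared 43 barcodes. Nuclei were assigned to cell types by marker genes, and a type name such as astrocyte stands for astrocyte-like nuclei in this sense. In gated astrocytes, 12 of 12 markers were found in at least 5% of nuclei of each library. The gate called 572 astrocytes in ShamRT-28d and 1246 in WBRT-28d, 187 and 309 fibroblasts, 115 and 250 mural nuclei, 230 and 534 endothelial nuclei, and 38 and 61 choroid plexus epithelial nuclei. Intervals in brackets are exact 95% intervals and cover counting error only, not differences between animals or preparations. Those of levels and ratios treat UMIs as independent, although several can come from the same nucleus.

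Over all kept nuclei, RP23-474J16.2 was 2.51 times as high in WBRT-28d as in ShamRT-28d, and Nr2f2 was 1.55 times as high. The noncoding RNA had 583 UMIs in ShamRT-28d and 2035 in WBRT-28d, or 14.3 (13.1 to 15.5) and 35.8 (34.3 to 37.4) CPM, the UMIs per 1000000 UMIs of the same nuclei. Nr2f2 had 801 and 1730 UMIs, or 19.6 (18.3 to 21.0) and 30.4 (29.0 to 31.9) CPM. The interval of the ratio was 2.29 to 2.76 for the noncoding RNA and 1.43 to 1.69 for Nr2f2, so the ratios did not overlap. The noncoding ratio divided by that of Nr2f2 was 1.62 (1.42 to 1.83). Of 18537 genes with at least 20 UMIs over both libraries, 5.9% had a ratio of at least 1.5 and 9.5% a ratio of at most 1/1.5. Both members were chosen for their ratios, so nothing is read from their place in this background. Among the 15604 genes with at least 100 UMIs, RP23-474J16.2 was 55th from the highest ratio and Nr2f2 547th, and the median ratio of these genes was 1.0.

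More nuclei carried each transcript in WBRT-28d. At least 1 RP23-474J16.2 UMI was found in 262 nuclei (2.53%, 2.24 to 2.85) of ShamRT-28d and 935 nuclei (6.66%, 6.25 to 7.08) of WBRT-28d. For Nr2f2 the shares were 4.52% (467 nuclei) and 7.87% (1105 nuclei). When nuclei were thinned to a depth of 1000 UMIs, a step that left out 484 shallower ShamRT-28d nuclei and 0 of WBRT-28d, the shares were 1.34% and 3.10% for the noncoding RNA and 2.18% and 3.19% for Nr2f2.

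The cell type composition of the libraries differed, so levels were also averaged over types at a fixed composition. Ungated nuclei, nuclei with several classes and neurons of no gated type each entered as a group. The mix of cell types inside these groups was not held fixed. Nuclei with several classes had a noncoding ratio of 2.44 and an Nr2f2 ratio of 0.766. Ungated nuclei held 19.2% of the noncoding UMIs in ShamRT-28d and 7.71% in WBRT-28d. The noncoding ratio was then 2.06 and the Nr2f2 ratio 1.23. With types taken from clusters in place of the nucleus-by-nucleus gate, these became 1.78 and 1.0. At fixed composition the noncoding RNA was thus higher in WBRT-28d by both ways of naming types, and Nr2f2 by the gate only. Without astrocytes the noncoding ratio was 2.01 (1.82 to 2.22) and that of Nr2f2 was 1.54 (1.41 to 1.67).

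**Figure D1:**
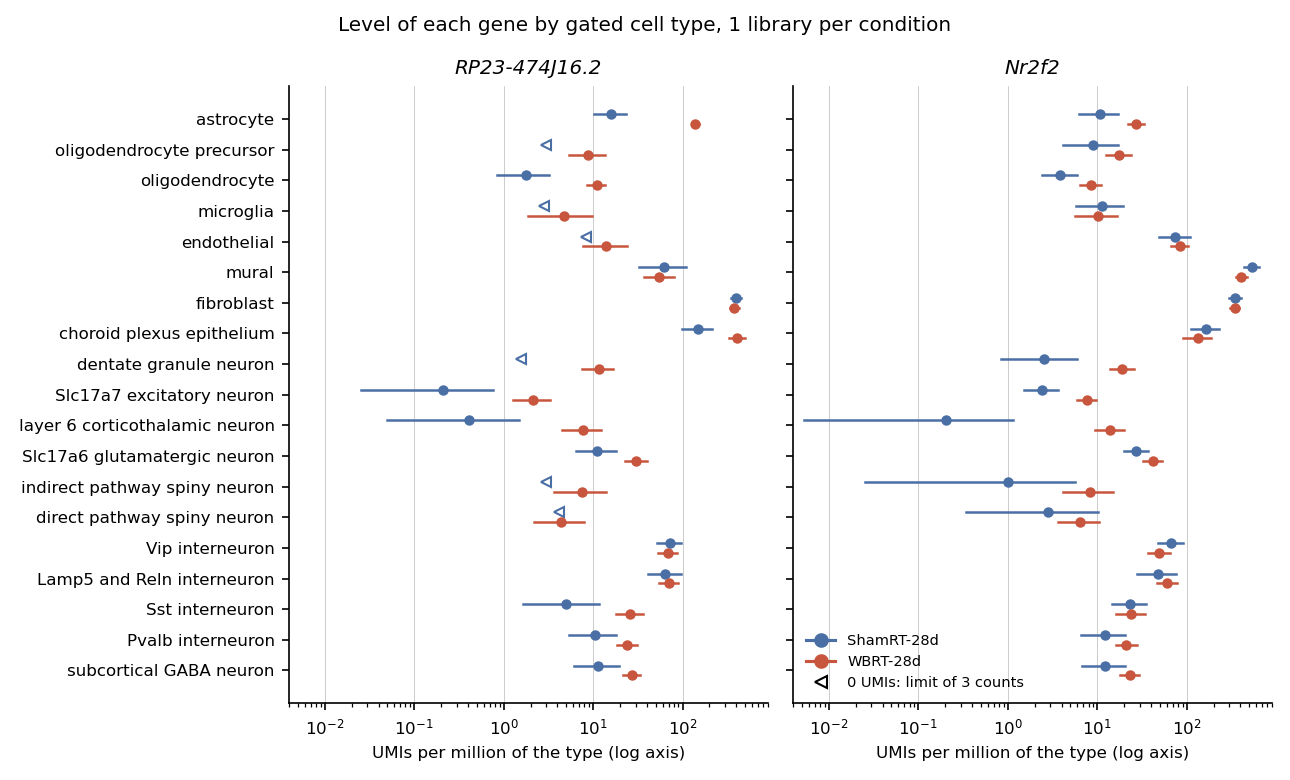
Level of RP23-474J16.2 (left) and Nr2f2 (right) in CPM of each gated cell type, on a log axis, with ShamRT-28d drawn in blue and WBRT-28d in red. Points are summed counts of 1 library, bars are exact 95% intervals for counting error, and open triangles mark the limit of 3 counts where a type had 0 UMIs. Noncoding points for astrocytes lie apart at 15.7 and 139 CPM, and those for fibroblasts overlap at 397 and 380 CPM.

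Each transcript had its own order of cell types. In ShamRT-28d, RP23-474J16.2 was highest in fibroblasts at 397 CPM (346 to 455), followed by choroid plexus epithelium at 147 CPM (97.9 to 213). Vip interneurons (71.6 CPM), Lamp5 and Reln interneurons (64.1 CPM) and mural nuclei (62.8 CPM) came next with overlapping intervals, and that of mural nuclei also reached the choroid plexus interval. Astrocytes (15.7 CPM), subcortical GABA neurons (11.4 CPM), Slc17a6 glutamatergic neurons (11.1 CPM) and Pvalb interneurons (10.4 CPM) also overlapped. No UMI was found in oligodendrocyte precursors, microglia, endothelial nuclei, dentate granule neurons or either class of spiny projection neuron. In the largest of these gates, 0 positive among 569 microglia leaves room for detection in up to 0.527% of them (3 counts) at their median depth of 1655 UMIs, and says nothing of transcript that was not sampled.

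In WBRT-28d the order was different at the top. Choroid plexus epithelium (406 CPM, 331 to 494) and fibroblasts (380 CPM, 340 to 424) overlapped at the top, and astrocytes followed at 139 CPM (128 to 152). Lamp5 and Reln interneurons (70.1 CPM), Vip interneurons (68.5 CPM) and mural nuclei (55.2 CPM) again overlapped. Below them came Slc17a6 glutamatergic neurons (30.3 CPM), subcortical GABA neurons (27.2 CPM), Sst interneurons (26.2 CPM) and Pvalb interneurons (23.9 CPM), with overlapping intervals. Ependymal nuclei, with 24 and 34 nuclei, had 5 and 9 UMIs and were too few to place.

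Nr2f2 was highest in mural nuclei, the pericytes and smooth muscle cells of vessels, at 534 CPM (435 to 648) in ShamRT-28d, against 408 CPM (354 to 468) in WBRT-28d. Fibroblasts followed at 348 CPM (300 to 402) and 344 CPM (306 to 386), and choroid plexus epithelium at 163 CPM (111 to 232) and 133 CPM (91.4 to 187). Endothelial nuclei had 74.2 and 83.6 CPM. Vip interneurons had 66.6 and 49.7 CPM, and Lamp5 and Reln interneurons 47.4 and 60.8 CPM. In WBRT-28d the intervals of mural nuclei and fibroblasts overlapped, as did those of endothelial nuclei and Lamp5 and Reln interneurons. Astrocytes had 10.7 and 27.5 CPM, below these types in both libraries. Across the 17 types that had 100 or more nuclei per library, the log2(CPM + 1) levels of the pair had a Pearson r of 0.790 with libraries averaged, 0.769 in ShamRT-28d and 0.774 in WBRT-28d. These points share the libraries and their depths.

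**Figure D2:**
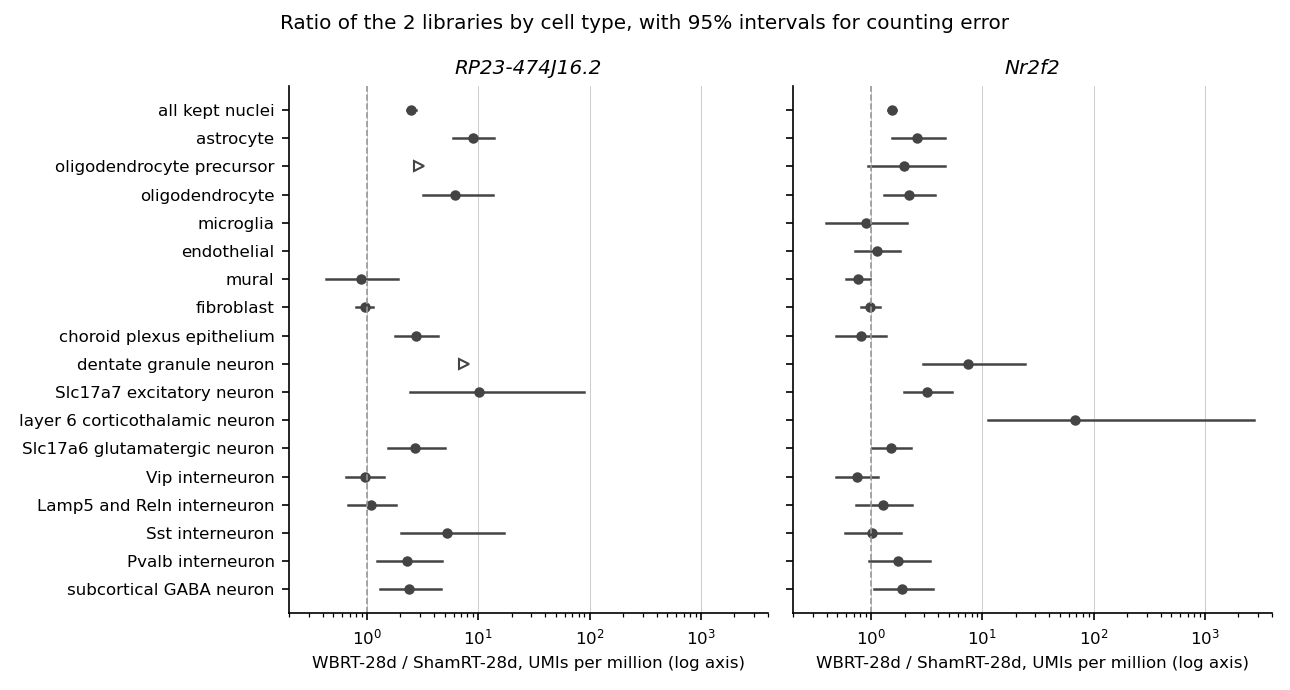
WBRT-28d to ShamRT-28d ratio of RP23-474J16.2 (left) and Nr2f2 (right) in all kept nuclei and in each cell type with at least 20 UMIs of the gene, on a log axis. Bars are exact 95% intervals for counting error, open triangles are lower bounds where ShamRT-28d had 0 UMIs, and the dashed line marks a ratio of 1. The noncoding astrocyte ratio of 8.89 has a lower bound of 5.95, and the fibroblast ratio of 0.957 lies at the line.

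In astrocytes the noncoding RNA was far higher in WBRT-28d, and Nr2f2 was higher by less. RP23-474J16.2 had 25 UMIs in ShamRT-28d and 518 in WBRT-28d, or 15.7 CPM (10.2 to 23.2) and 139 CPM (128 to 152), a ratio of 8.89 (5.95 to 13.9). Nr2f2 had 17 and 102 UMIs, or 10.7 CPM (6.21 to 17.1) and 27.5 CPM (22.4 to 33.3), a ratio of 2.57 (1.53 to 4.59). Both transcripts were thus higher in WBRT-28d astrocytes, and the noncoding ratio was 3.44 times that of Nr2f2 (1.68 to 6.92), or 2.25 times with doublets kept. Among 12259 genes with at least 20 UMIs in astrocytes, 9.54% had a ratio of at least 1.5 and 9.52% a ratio of at most 1/1.5. RP23-474J16.2 was 13th from the highest ratio among these genes and 1st among the 7331 with at least 100 UMIs, where Nr2f2 was 27th. The pair was chosen by its ratios in these same libraries, so nothing is read from these places.

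The noncoding UMIs were spread over many astrocytes. Positive nuclei numbered 18 of 572 (3.15%, 1.88 to 4.93) in ShamRT-28d and 212 of 1246 (17.0%, 15.0 to 19.2) in WBRT-28d. In WBRT-28d, 98 astrocytes had 1 UMI, 47 had 2 and 67 had 3 or more, with at most 10 in a nucleus. In ShamRT-28d, 12 had 1 UMI, 5 had 2 and 1 had 3. Nr2f2-positive astrocytes numbered 15 (2.62%) and 84 (6.74%). Thinned to 1000 UMIs, the shares were 1.76% and 9.57% for the noncoding RNA and 1.10% and 2.55% for Nr2f2. Astrocytes held 4.29% of the library's RP23-474J16.2 UMIs in ShamRT-28d and 25.5% in WBRT-28d, and 2.12% and 5.90% of its Nr2f2 UMIs. Median depth was 2396 and 2686 UMIs per astrocyte.

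RNA set free from other cells can give UMIs in nuclei that do not transcribe a gene, so neuronal transcripts were counted in astrocytes. Of 8 neuronal genes (Snap25, Syt1, Rbfox3, Snhg11, Meg3, Grin1, Nrgn and Syn1), 6 had an interval above 1 in astrocytes, with a median ratio of 1.41, against 0.978 for all genes there. Their summed level in astrocytes was 12.3% of the library mean in ShamRT-28d and 18.8% in WBRT-28d. At that dilution the library means would give 1.76 and 6.72 CPM of RP23-474J16.2 and 2.41 and 5.71 CPM of Nr2f2 in astrocytes. The measured noncoding levels were 15.7 and 139 CPM and the Nr2f2 levels 10.7 and 27.5 CPM. The dilution was not measured for either member, and the library means include the UMIs of astrocytes themselves. Astrocytes held 25.5% of the noncoding UMIs in WBRT-28d. The part of free RNA in the astrocyte levels was not tested. In microglia the median ratio of the 8 genes was 1.68, and RP23-474J16.2 was found in 0 of 569 and 6 of 701 nuclei (0.856%), at median depths of 1655 and 1892 UMIs.

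Subsets of the astrocytes were compared after the values above were seen, so they are descriptive. Agt, which encodes angiotensinogen and is mainly expressed by astrocytes outside the cerebral cortex, marked 51 astrocytes in ShamRT-28d and 154 in WBRT-28d. In these Agt-positive nuclei the noncoding RNA was found in 19.6% (9.82 to 33.1) and 48.1% (39.9 to 56.2), at 107 and 483 CPM, a ratio of 4.53 (2.73 to 8.06). Nr2f2 there had 9 and 29 UMIs, a ratio of 0.969 (0.447 to 2.33). In the 521 and 1092 astrocytes without an Agt UMI, the noncoding RNA was found in 1.54% and 12.6%, at 6.24 and 86.2 CPM, a ratio of 13.8 (7.17 to 30.5). Nr2f2 was at 5.54 and 22.7 CPM in those nuclei, a ratio of 4.10 (1.97 to 9.84). The noncoding RNA was thus higher in WBRT-28d in both subsets, and Nr2f2 in the Agt-negative subset.

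Clusters gave a similar division. Cluster 29 held 68 and 206 gated astrocytes with Agt at 419 and 230 CPM, the GABA transporter gene Slc6a11 at 1498 and 1047 CPM, and the forebrain transcription factor gene Lhx2 at 5.99 and 17.6 CPM. RP23-474J16.2 was found in 17.6% and 41.7% of its nuclei, with 18 and 233 UMIs and a ratio of 3.80 (2.35 to 6.53), while the Nr2f2 ratio was 0.822 (0.388 to 1.90). Cluster 12, with 380 and 854 nuclei, had Lhx2 at 55.2 and 43.3 CPM and Agt at 7.62 and 23.0 CPM. It held 2 noncoding UMIs in ShamRT-28d and 224 in WBRT-28d, and the positive share was 0.526% (0.0638 to 1.89) and 11.8% (9.74 to 14.2). The noncoding ratio was 46.7 (12.8 to 388) in cluster 12, and Nr2f2 had 1 and 52 UMIs there, a ratio of 21.7 (3.72 to 873). Cluster 13, with 100 and 134 nuclei and Gfap at 531 and 566 CPM, had 4 and 46 noncoding UMIs and 5 and 13 Nr2f2 UMIs. The noncoding RNA was therefore more abundant in WBRT-28d in each of the 3 astrocyte clusters.

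Astrocytes that expressed Gfap, Myoc, Tnc and Thbs4, genes of fibrous and surface astrocytes, did not stand apart for RP23-474J16.2. With 2 or more UMIs of these genes, 2.94% of 102 ShamRT-28d and 17.3% of 231 WBRT-28d nuclei were positive. With under 2 UMIs the shares were 3.19% of 470 and 16.9% of 1015. Nr2f2 was found in 2.94% and 11.3% (7.49 to 16.1) of nuclei with 2 or more UMIs of these genes. With under 2 UMIs it was found in 2.55% and 5.71% (4.37 to 7.32), so its WBRT-28d intervals did not overlap.

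**Figure D3:**
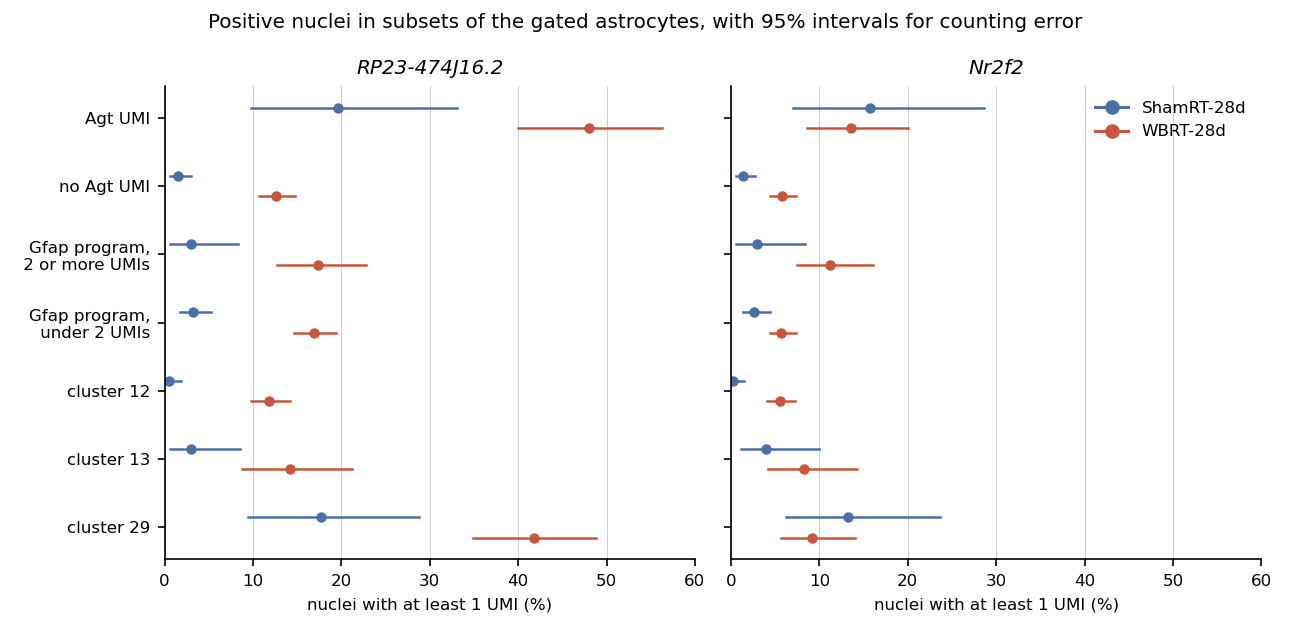
Share of gated astrocytes with at least 1 UMI of RP23-474J16.2 (left) and Nr2f2 (right) by subset, drawn in blue for ShamRT-28d and in red for WBRT-28d, with exact 95% intervals for counting error. The subsets are nuclei with and without an Agt UMI, with 2 or more and under 2 UMIs of Gfap, Myoc, Tnc and Thbs4, and the 3 astrocyte clusters. Every noncoding share is higher in WBRT-28d, and Agt-positive nuclei have the highest shares at 19.6% and 48.1%.

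Regional genes were read in noncoding-positive astrocytes, and the intervals of Agt, Lhx2, Lama3 and Chrdl1 overlapped between the libraries. Those of Slc6a11 did not, at 1292 CPM (973 to 1682) in ShamRT-28d and 620 CPM (563 to 681) in WBRT-28d. In ShamRT-28d, the 18 positive nuclei had Agt at 376 CPM (215 to 610), against 45.8 CPM in 554 negative nuclei, and 0 UMIs of Lhx2, Lama3 and Chrdl1, whose exact interval reaches 86.7 CPM. In WBRT-28d, the 212 positive nuclei had Agt at 189 CPM (158 to 224), against 33.2 CPM in 1034 negative nuclei. They also held 12 UMIs of Lhx2, 26 of Lama3 and 12 of Chrdl1. Lhx2 was at 17.1 CPM (8.82 to 29.8) in positive and 41.2 CPM in negative WBRT-28d astrocytes. Over all astrocytes, Agt was at 54.6 and 62.7 CPM, Lhx2 at 46.4 and 36.6 CPM, and Lama3 at 198 and 93.2 CPM. Which brain regions contributed to each library was not recorded, and the part of regional sampling in the astrocyte difference was not tested beyond these values.

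Fibroblasts, the cells of the meninges and vessel walls, held the highest level of RP23-474J16.2 in ShamRT-28d and showed no such difference. The noncoding RNA had 211 and 328 UMIs, or 397 and 380 CPM, a ratio of 0.957 (0.802 to 1.14). Nr2f2 had 185 and 297 UMIs, or 348 and 344 CPM, a ratio of 0.988 (0.820 to 1.19). The ratio of ratios was 0.968 (0.746 to 1.26). Positive shares were 40.6% and 41.7% for RP23-474J16.2 and 47.1% and 48.2% for Nr2f2. A single ShamRT-28d fibroblast held 25 noncoding UMIs, and the highest count in WBRT-28d was 14. Fibroblasts held 36.2% of the noncoding UMIs in ShamRT-28d and 16.1% in WBRT-28d.

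In choroid plexus epithelium, which secretes cerebrospinal fluid, the ratios of the pair differed. RP23-474J16.2 had 28 and 101 UMIs, or 147 and 406 CPM, a ratio of 2.76 (1.80 to 4.36). Nr2f2 had 31 and 33 UMIs, or 163 and 133 CPM, a ratio of 0.814 (0.483 to 1.37). The ratio of ratios was 3.36 (1.69 to 6.78). Noncoding-positive nuclei were 12 of 38 (31.6%) and 41 of 61 (67.2%), while Nr2f2-positive nuclei numbered 19 and 23 (37.7%). Median depth was 4715 and 3453 UMIs, so the noncoding share was higher in the shallower group.

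In mural nuclei, the type with the highest Nr2f2 level, Nr2f2 had 102 and 207 UMIs, or 534 and 408 CPM, a ratio of 0.765 (0.60 to 0.979). RP23-474J16.2 had 12 and 28 UMIs and a ratio of 0.879 (0.433 to 1.90). Of the 2 mural clusters, one held 128 and 313 nuclei and the other 2 and 43. Endothelial nuclei had 27 and 83 Nr2f2 UMIs, a ratio of 1.13 (0.722 to 1.81), and 0 and 14 UMIs of the noncoding RNA. The 14 UMIs came to 14.1 CPM, against 10.3 CPM given by the neuronal dilution, and the part of free RNA in them was not tested.

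Interneurons of the caudal ganglionic eminence, in which COUP-TFII is a known fate factor, showed no separation of the libraries. In Vip interneurons RP23-474J16.2 had 43 and 73 UMIs (ratio 0.957, 0.647 to 1.43) and Nr2f2 40 and 53 (ratio 0.747, 0.486 to 1.16). In Lamp5 and Reln interneurons the noncoding RNA had 23 and 68 UMIs (ratio 1.09, 0.673 to 1.84) and Nr2f2 17 and 59 (ratio 1.28, 0.738 to 2.35). All 4 intervals included 1. In Sst interneurons, which arise from the medial ganglionic eminence, the noncoding RNA had 5 and 34 UMIs, a ratio of 5.2 (2.02 to 17.0), and Nr2f2 23 and 31 UMIs, a ratio of 1.03 (0.582 to 1.85). The ratio of ratios in Sst interneurons was 4.96 (1.59 to 18.8). The noncoding ratio there was 3.31 with doublets kept, 2.79 with a stricter gate and 2.47 with types from clusters, where that of Nr2f2 was 0.624. The cluster named Sst matched Pvalb markers almost as well (mean relative marker levels of 0.749 and 0.733), so its ratios may cover both types. Pvalb interneurons had noncoding and Nr2f2 ratios of 2.30 (1.23 to 4.68) and 1.75 (0.962 to 3.41). Subcortical GABA neurons had ratios of 2.38 (1.32 to 4.65) and 1.88 (1.06 to 3.61). In the last pair of types the ratio of ratios was 1.31 (0.514 to 3.39) and 1.26 (0.514 to 3.12), so the transcripts could not be separated at this depth. A stricter gate gave a noncoding ratio of 1.37 in subcortical GABA neurons. Without the nucleus of each library with the most UMIs of the gene, the Pvalb ratios were 4.10 and 2.73.

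In ShamRT-28d, levels in cortical and dentate glutamatergic neurons were low, and Slc17a6 neurons had 11.1 CPM of RP23-474J16.2 and 27.5 CPM of Nr2f2. Slc17a7 excitatory neurons had 2 and 19 noncoding UMIs, a ratio of 10.1 (2.44 to 89.4), and 23 and 69 Nr2f2 UMIs, a ratio of 3.19 (1.96 to 5.36). Dentate granule neurons had 0 and 26 noncoding UMIs, 7.47-fold higher against a floor of 3 counts per library. The exact lower limit of their noncoding ratio was 5.65. Nr2f2 had 5 and 43 UMIs in these neurons, a ratio of 7.41 (2.94 to 24.0). Layer 6 corticothalamic neurons had 2 and 17 noncoding UMIs and 1 and 31 Nr2f2 UMIs. Slc17a6 glutamatergic neurons had noncoding and Nr2f2 ratios of 2.72 (1.55 to 5.02) and 1.53 (1.03 to 2.29), but a cluster of these neurons held 133 ShamRT-28d and 2 WBRT-28d nuclei. Levels in WBRT-28d were 2.12 CPM of RP23-474J16.2 and 7.69 CPM of Nr2f2 in Slc17a7 neurons, and 11.5 and 19.1 CPM in dentate granule neurons. The part of free RNA in these low levels was not tested.

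In the other glia RP23-474J16.2 was sparse. Oligodendrocytes had 10 and 75 UMIs of RP23-474J16.2, a ratio of 6.19 (3.19 to 13.4), and 22 and 58 of Nr2f2, a ratio of 2.18 (1.31 to 3.74). Oligodendrocyte precursors had 0 and 20 noncoding UMIs, 2.95-fold higher against the floor, with an exact lower limit of 2.19. Nr2f2 had 9 and 40 UMIs in precursors, a ratio of 1.97 (0.941 to 4.62). Microglia had 12 and 15 Nr2f2 UMIs, a ratio of 0.901 (0.394 to 2.11). In WBRT-28d the noncoding levels of oligodendrocytes, precursors and microglia were 10.9, 8.85 and 4.71 CPM, and the neuronal dilution gave 12.7, 14.7 and 10.4 CPM. The neuronal genes stood at 35.4% of the library mean in oligodendrocytes of WBRT-28d. In WBRT-28d oligodendrocytes, 8 nuclei had 3 or more noncoding UMIs and the highest had 7. The noncoding RNA was found there in 18.8% (8.95 to 32.6) of Nr2f2-positive and 1.79% (1.27 to 2.46) of Nr2f2-negative nuclei. The dilution was not measured for this gene itself, and the part of free RNA in these ratios was not tested.

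Co-detection in single nuclei was compared within each library. Over all kept nuclei, RP23-474J16.2 was found in 29.8% (25.7 to 34.1) of Nr2f2-positive and 1.25% (1.04 to 1.48) of Nr2f2-negative ShamRT-28d nuclei. In WBRT-28d these shares were 30.7% (28.0 to 33.5) and 4.61% (4.25 to 4.98). The intervals of the libraries overlapped among Nr2f2-positive nuclei, and the share among Nr2f2-negative nuclei was higher in WBRT-28d. The odds ratio of co-detection was 33.6 (25.5 to 44.2) in ShamRT-28d and 9.16 (7.84 to 10.7) in WBRT-28d. Conversely, 53.1% of noncoding-positive nuclei carried Nr2f2 in ShamRT-28d and 36.3% in WBRT-28d. These values pool all cell types, including types high in both transcripts and types with little of either. Within types the odds ratios were 1.46 (0.778 to 2.73) and 2.34 (1.44 to 3.83) in fibroblasts. They were 0.814 (0.193 to 3.61) and 0.910 (0.337 to 2.40) in mural nuclei. In astrocytes they were 29.5 (7.45 to 112) and 5.82 (3.59 to 9.46). The intervals of the libraries overlapped in each of these types.

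In astrocytes both transcripts were found together in 6 and 42 nuclei. The noncoding share was 40% (16.3 to 67.7) and 50% (38.9 to 61.1) among Nr2f2-positive astrocytes, and 2.15% (1.12 to 3.73) and 14.6% (12.6 to 16.8) among Nr2f2-negative ones. The noncoding RNA without an Nr2f2 UMI was found in 12 astrocytes of ShamRT-28d and 170 of WBRT-28d. At 27.5 CPM in WBRT-28d astrocytes Nr2f2 was sparsely sampled, so a nucleus without an Nr2f2 UMI may still hold the transcript. In fibroblasts the shares with and without Nr2f2 were 45.5% and 36.4% in ShamRT-28d, compared with 52.3% and 31.9% in WBRT-28d. In mural nuclei they were 8.82% and 10.6%, and 8.40% and 9.16%, with overlapping intervals. Deep nuclei hold both transcripts more often, and thinning lowered the shares without changing the order in all kept nuclei (17.2% and 0.982%, then 15.1% and 2.70%). In fibroblasts the thinned shares with and without Nr2f2 were 25.1% and 24.9% in ShamRT-28d, so they hardly differed there. In WBRT-28d fibroblasts they were 32.4% and 22.5%.

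**Figure D4:**
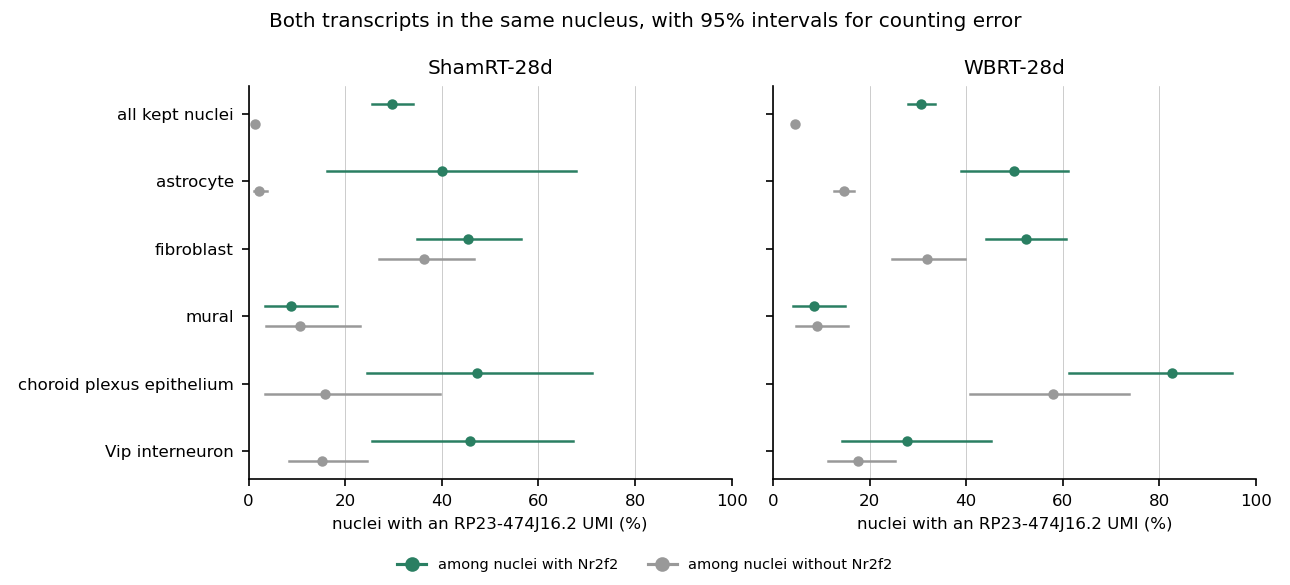
Share of nuclei with an RP23-474J16.2 UMI among nuclei with (green) and without (grey) an Nr2f2 UMI, in ShamRT-28d (left) and WBRT-28d (right), for all kept nuclei and 5 cell types, with exact 95% intervals for counting error. In astrocytes the grey point is at 2.15% in ShamRT-28d and 14.6% in WBRT-28d, and the mural points overlap in both libraries.

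Other transcripts of the locus were read in the same nuclei. GENCODE vM21 places 20 genes within 500 kb of the pair, 12 of which were features, 8 of these with at least 20 UMIs and 3 with 0 UMIs. Gm28258, a noncoding gene upstream of Nr2f2 on its strand, had 58 and 120 UMIs, a ratio of 1.49 (1.08 to 2.07). RP24-240G4.4, farther upstream, had 32 and 47 UMIs (1.06, 0.660 to 1.71). RP23-449M8.6 and RP23-449M8.5, on the opposite strand, had 48 and 115 UMIs (1.72, 1.22 to 2.47) and 68 and 209 UMIs (2.21, 1.67 to 2.95). RP24-286L23.3, in the gap between the members, had 5 and 15 UMIs, and RP23-449M8.3 had 8 and 16. In astrocytes each of the 10 other features had 0 or 1 UMI in ShamRT-28d and 0 to 5 UMIs in WBRT-28d, too few for a ratio.

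**Figure D5:**
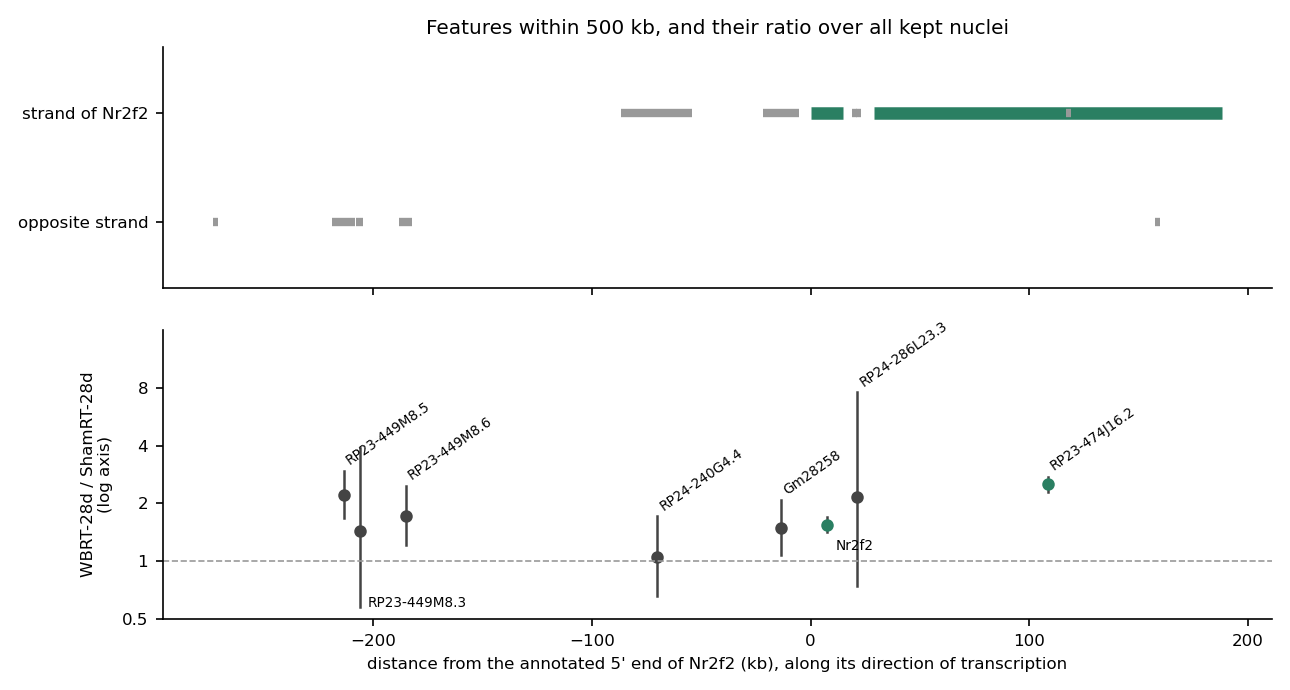
Annotated features within 500 kb by strand (top, the members in green) and their WBRT-28d to ShamRT-28d ratio over all kept nuclei (bottom, log axis), plotted against distance in kb from the annotated 5′ end of Nr2f2 along its direction of transcription. Bars are exact 95% intervals for counting error and the dashed line marks a ratio of 1. RP23-474J16.2 at 2.51 and RP23-449M8.5 at 2.21 have the highest ratios among features with intervals above 1.

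The genes most like each member by level over the 17 types were found among 15405 genes. For RP23-474J16.2 these were Acadsb (Pearson r 0.891), Egfr (0.883), Pcdhga3 (0.873), Egfros (0.850) and Igsf8 (0.849). In astrocytes Egfr, the epidermal growth factor receptor gene, had 694 and 1430 UMIs and a ratio of 0.884 (0.807 to 0.969), and Acadsb had a ratio of 0.786 (0.655 to 0.946). For Nr2f2 they were Gm28258 (0.949), Lrrc71 (0.923), Serping1 (0.905), Tmem45a (0.896) and Spsb2 (0.896). Gm28258 is the upstream neighbour of Nr2f2.

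Relatives and partners of COUP-TFII were examined as listed genes. Of 7 family members and nuclear receptor partners (Nr2f1, Nr2f6, Nr2c1, Nr2c2, Rxra, Rxrb and Rxrg), 0 reached a ratio of 1.5 over all kept nuclei, where 5.9% of all genes did, and 3 did so in astrocytes, where 9.54% did. Their median ratios were 1.19 and 0.987, against 0.992 and 0.978 for all genes. Nr2f1, which encodes COUP-TFI, had 104 and 439 UMIs in astrocytes, or 65.3 and 118 CPM, a ratio of 1.81 (1.46 to 2.26), and a ratio of 1.25 (1.17 to 1.33) over all kept nuclei. Its level was 119 CPM in noncoding-positive and 118 CPM in noncoding-negative WBRT-28d astrocytes. The other 2, Rxra and Rxrg, retinoid X receptor genes, had intervals that included 1 in astrocytes. Nr2c1, an orphan receptor gene, was at 47.1 and 33.1 CPM there, a ratio of 0.704 (0.524 to 0.951).

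Of 5 cofactor genes (Zfpm1, Zfpm2, Bcl11a, Bcl11b and Ncor1), 0 were at least 1.5 times higher and 1 was as much lower over all kept nuclei, against 5.9% and 9.5% of all genes, with a median ratio of 1.10. Zfpm2, which encodes the cofactor FOG2, was that gene, at 447 and 277 CPM (0.620, 0.607 to 0.633). In astrocytes, 4 cofactors had at least 20 UMIs, and 1 was above 1.5, against 9.54% of all genes: Bcl11b, at 12.6 and 23.7 CPM (1.89, 1.15 to 3.24). Over all kept nuclei Bcl11b was at 92.0 and 111 CPM, and the neuronal genes in astrocytes stood at 12.3% and 18.8% of the library mean. The part of free RNA in the astrocyte level of Bcl11b was not tested. The corepressor gene Ncor1 had an astrocyte ratio of 1.01.

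In Vip with Lamp5 and Reln interneurons, 7 of 9 interneuron fate factors had at least 20 UMIs, and 2 had a ratio of at most 1/1.5, with a median ratio of 0.862 over the 7. Among 10430 genes there, 11.3% were as much lower. Satb1 was at 32.3 and 61.4 CPM (1.90, 1.27 to 2.91), Maf at 434 and 238 CPM (0.549, 0.481 to 0.628) and Dlx1 at 51.1 and 32.9 CPM (0.644, 0.439 to 0.951). Prox1, a factor of caudal interneurons, had a ratio of 1.05 (0.872 to 1.27). Sp8 had 9 and 8 UMIs, Nkx2-1 had 0 in both libraries, and Npas1, Npas3 and Nfix had ratios of 0.776, 0.862 and 1.04.

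A set of 13 genes of vein, artery and lymphatic fate, a process in which COUP-TFII acts, were read in vascular nuclei. In endothelial nuclei 11 had at least 20 UMIs, 3 were at least 1.5 times higher and 1 as much lower, against 16.7% and 10.8% of all genes. Nrp2, a coreceptor gene of veins and lymphatics, was at 346 and 225 CPM (0.649, 0.519 to 0.814), and Vwf, the von Willebrand factor gene, at 549 and 427 CPM (0.777, 0.655 to 0.924). In mural nuclei 6 were counted, 3 higher and 0 lower, against 23.7% and 13.5% of all genes, and Angpt1, the ligand of the Tie2 receptor, was at 94.2 and 177 CPM (1.88, 1.13 to 3.32). In fibroblasts 7 were counted, 2 higher and 1 lower, against 13.5% and 10.5% of all genes. The artery ligand gene Efnb2 was at 54.6 and 88.1 CPM there (1.61, 1.04 to 2.57), and its vein receptor gene Ephb4 at 41.4 and 19.7 CPM (0.476, 0.237 to 0.938).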

How the data were processed

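Single-nucleus RNA-seq was read from 2 libraries. Raw UMI counts per gene and barcode were deposited by the authors. Cell Ranger 5.0.0 (per the file headers) had been run on a pre-mRNA version of mm10, so intronic reads are included. Seurat 3.0 and R 3.5.3 stand in the submitters' processing notes too. Feature IDs were matched to GENCODE vM21 (27645 of 27998 found), which may differ from the authors' gene models. Sequences were RefSeq start windows of GRCm38.p6 and GENCODE vM21 transcripts.

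Barcodes with fewer than 500 genes or with over 5% mitochondrial UMIs were dropped, and doublets called by Scrublet in scanpy 1.11.5 on all barcodes were removed, 698 (6.09%) from ShamRT-28d and 1626 (10.2%) from WBRT-28d. Nuclei were gated by 194 marker genes in 22 types, with neither member among them. A nucleus took a glial, vascular or epithelial type if its share of UMIs from a list reached 0.3 of the level in that list's own nuclei and 3 times the next list. Neurons were divided by a multinomial likelihood with a log margin of 3. The thresholds were set after nuclei were seen, from markers alone. One neuron group whose leading genes did not bear out its list stayed unnamed, and 318 and 675 nuclei with several classes, 1076 and 992 ungated nuclei, and 1182 and 1961 neurons of no gated type were in no type.

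UMIs were summed per type and library and divided by all UMIs of the type. Intervals are exact (Poisson for levels, conditional binomial for ratios, Clopper-Pearson for shares, conditional odds ratio for a ratio of ratios), computed with scipy 1.17.1. Those for ratios and ratios of ratios were run on simulated independent Poisson counts, the model that they assume. Clumping of UMIs within nuclei was not simulated, and where it occurs these intervals can be too narrow. Ratios needed 20 UMIs over both libraries, and a count of 0 was bounded by 3 counts. With 1 library per condition there was no test. Alternatives were clusters (30 principal components, 2000 variable genes without the members, 48 clusters), a stricter gate, doublets kept, thinning to 1000 UMIs, other scalings and, added after the data were seen, leaving out shared barcodes or the top nucleus and splitting astrocytes. Members, gene lists and tests were chosen with earlier results of these data known. The named genes were the members, the listed genes, features within 500 kb and the 5 genes most like each member. The astrocyte genes Agt, Slc6a11, Lhx2, Lama3, Chrdl1 and the Gfap group were added after values were seen. One listed gene is not reported here.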

Additional observations from a re-analysis of the deposited data

Results flagged for a closer look

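The ratio of RP23-474J16.2 was 8.89 (5.95 to 13.9) in astrocytes and 0.957 (0.802 to 1.14) in fibroblasts, above 1 in one type and just under 1, with an interval that includes 1, in the other. The ratio of Nr2f2 was 2.57 (1.53 to 4.59) in astrocytes and 0.765 (0.60 to 0.979) in mural nuclei. Each pair of types was picked after the values were seen, and with 1 library per condition the difference between types was not tested.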

How the results depend on the processing

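Of 228 values under alternatives, 174 were ratios per type, and 170 of those stayed within the counting interval of the reported value. The noncoding ratio in astrocytes ranged from 4.53 to 13.8 over 10 alternatives, both ends being the astrocytes with and without an Agt UMI. By cluster it ranged more widely, from 3.80 in cluster 29 to 46.7 in cluster 12, which held 2 ShamRT-28d UMIs. The Nr2f2 ratio in Agt-positive astrocytes fell on the other side of 1 at 0.969. Types from clusters gave fixed-composition ratios of 1.78 and 1.0 for the noncoding RNA and Nr2f2, a noncoding ratio of 1.44 in Vip interneurons and an Nr2f2 ratio of 5.18 in oligodendrocyte precursors. The cluster named Vip also carried Lamp5 and Reln markers (mean relative marker levels of 0.681 and 0.613), so its ratio may cover both types. Thinning to 1000 UMIs gave whole-library ratios of 2.25 and 1.39. Thinned positive shares, ShamRT-28d then WBRT-28d, were 1.34% and 3.10% for the noncoding RNA and 2.18% and 3.19% for Nr2f2 over all kept nuclei, and 1.76% and 9.57%, and 1.10% and 2.55%, in astrocytes. Thinned noncoding shares with and without Nr2f2 were 17.2% and 0.982% in ShamRT-28d, 15.1% and 2.70% in WBRT-28d, and 26.1% and 9.14% in WBRT-28d astrocytes, since thinning removes UMIs. A fold of 2 was passed by 1.70% of genes higher and 3.12% lower over all kept nuclei, and by 3.31% and 2.65% in astrocytes. At a minimum of 100 UMIs, 5.70% of genes were lower over all kept nuclei, and 5.31% were higher and 4.24% lower in astrocytes. Apart from thinning and the construction of stricter backgrounds, the cause of these shifts was not tested. No paired analysis was possible because each condition has 1 library. Depth limits what can be said of types with few UMIs, and no alternative measures variation between animals.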
